A study of Mus musculus with 6 samples.

Results

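The genes described here are 9 members of the pathway that activates and oxidises fatty acids, *Acsl1*, *Acsl5*, *Cpt1a*, *Cpt2*, *Acadm*, *Acadl*, *Hadha*, *Ehhadh* and *Acot1*. They were chosen by symbol, and all 9 were found among the 26903 genes of single-cell RNA sequencing matrices from the mouse renal cortex. The matrices came from 3 wild type (WT) mice and 3 mice lacking *Prdm16* in every tissue (KO), all 9 months old and labelled male. The KO allele was made with CRISPR-Cas9 by removing exon 2, which shifts the reading frame. Each mouse gave 1 library (WT1 to WT3 and KO1 to KO3), and PRDM16 itself is a zinc finger transcription regulator best known for the oxidative program of brown fat.

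Before a fatty acid can be burned it is joined to coenzyme A, a step carried out for long chains by the acyl-CoA synthetases ACSL1 and ACSL5. CPT1A at the outer and CPT2 at the inner mitochondrial membrane then pass the chain through a carnitine ester, after which beta-oxidation shortens it, with ACADM and ACADL as dehydrogenases of medium and long chains and HADHA as a subunit of the trifunctional protein. EHHADH does comparable steps in peroxisomes, and the cytosolic thioesterase ACOT1 releases free fatty acid from its CoA ester again. In the kidney fatty acids are the main fuel of the proximal tubule, and several of these genes are targets of the nuclear receptor PPAR-alpha.

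After filtering, 7015 to 9626 cells per library remained, with 24034510 to 35553235 UMIs (unique molecules) of nuclear-encoded genes, and levels are given as CPM, counts scaled to 1000000 such UMIs of a class in a library. Cells were grouped into 12 tested classes by marker genes, and the members had no part in the clustering. The proximal tubule class was uneven between libraries, with 50, 503 and 538 cells in WT1 to WT3 and 25, 154 and 118 cells in KO1 to KO3. Its label held against the markers, since the 13 proximal tubule markers summed to between 17360 and 27960 CPM there and to at most 1025 CPM in any other class. *Prdm16* was at 54.4, 45.5 and 44.4 CPM in WT mice and 37.5, 43.4 and 40.0 CPM in KO, and since counting at the transcript's end need not show a missing exon 2, these levels check nothing. In 2 libraries the sex label went against the data, WT2 with 455 and KO1 with 454 CPM of *Xist* (at most 0.250 CPM in the others) and almost no counts of Y-linked genes, so the called differences below were also tested without WT2 and KO1.

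In WT kidneys the members did not share one order of classes. Of the 9, *Cpt2*, *Acadm*, *Acadl*, *Ehhadh* and *Acot1* had their highest mean level in the proximal tubule, *Acsl1* and *Hadha* in the thick ascending limb, *Cpt1a* in the distal convoluted tubule and *Acsl5* in the connecting tubule. Lowest of all were the T and NK or the macrophage class for 6 members, the endothelial class for *Ehhadh*, the stromal and mesangial class for *Acot1*, and the proximal tubule itself for *Acsl5*. Between neighbouring classes in these orders the WT ranges overlapped in 5 to 9 of 11 pairs, so many neighbouring ranks were not separated. The size of a step did not settle this. *Acsl5* did not overlap between the connecting tubule and intercalated cells, with means of 179 and 171 CPM. *Acsl1* did overlap between the proximal tubule and macrophages, with means of 361 and 233 CPM. With mitochondrial genes kept in the totals, *Acsl5* and *Cpt1a* were highest in the macula densa and *Hadha* in the intercalated cells.

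**Figure D1:**
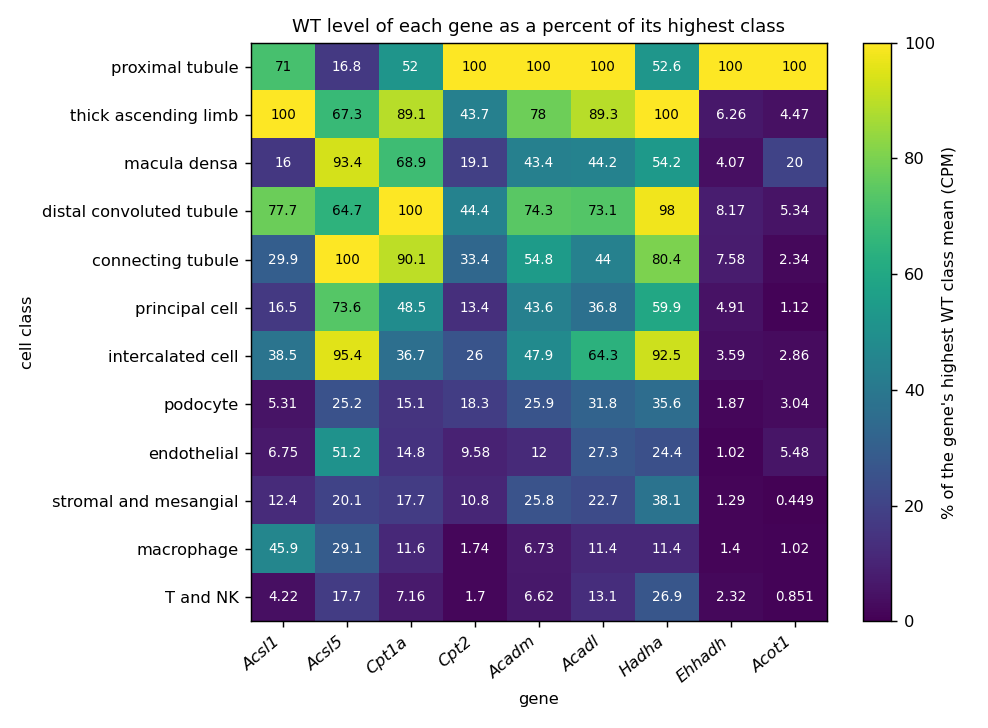
Mean WT level of each gene in each cell class (rows), as a percent of that gene's highest class, over 3 libraries. *Ehhadh* reached at most 8.17% outside the proximal tubule, whereas *Acsl5* was at 16.8% there.

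Among the activating enzymes, *Acsl1* was at 552, 471 and 502 CPM in the thick ascending limb of WT1 to WT3, above its 453, 382 and 349 CPM in the distal convoluted tubule. Its proximal tubule level was 117, 847 and 118 CPM, so that WT2 lay far above the other two and the class as a whole overlapped both. *Acsl5* showed another distribution, with 177, 178 and 182 CPM in the connecting tubule, 170, 176 and 166 CPM in intercalated cells and 184, 117 and 200 CPM in the macula densa. In the proximal tubule *Acsl5* was at 35.5, 33.9 and 20.7 CPM, 5.96-fold below the connecting tubule.

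Of the carnitine palmitoyltransferases, *Cpt1a* was highest along the distal nephron, at 993, 947 and 794 CPM in the distal convoluted tubule. The connecting tubule (904, 789 and 770 CPM) and the thick ascending limb (843, 906 and 688 CPM) overlapped that range. *Cpt2* was at 92.4, 173 and 94.7 CPM in the proximal tubule, 2.25-fold above the distal convoluted tubule (51.9, 59.0 and 49.3 CPM) with no overlap.

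The dehydrogenases were spread more evenly over the tubule. *Acadm* was at 665, 825 and 1035 CPM in the proximal tubule, a range that overlapped those of the thick ascending limb (676, 622 and 671 CPM) and the distal convoluted tubule (636, 565 and 675 CPM). *Acadl* was at 551, 622 and 656 CPM in the proximal tubule and 567, 556 and 509 CPM in the thick ascending limb, again overlapping. *Hadha* was at 420, 495 and 411 CPM in the thick ascending limb, and the distal convoluted tubule and intercalated cells overlapped it.

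*Ehhadh* and *Acot1* were the members most restricted to the proximal tubule. *Ehhadh* was at 181, 533 and 294 CPM there, while no WT library exceeded 28.8 CPM in another class. *Acot1* was at 235, 327 and 180 CPM, 4.99-fold above the macula densa (37.3, 69.0 and 42.3 CPM), which in turn lay above each remaining class, the endothelial class being next with 15.6, 9.11 and 16.0 CPM. All 3 WT libraries of the proximal tubule lay above all 3 of every other class for both genes.

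Genes whose WT class means ran most closely with a member were sought among 13663 genes by Pearson r of log2(CPM + 1) over the 12 classes, as a description in which all points share the same 3 libraries. *Hadha* was most like *Hadhb*, the gene of the other trifunctional protein subunit (r = 0.991), then *Mipep* (0.985) and *Atg4d* (0.981). *Acadm* followed *Aldh5a1* (0.990), *Ptgr2* (0.988) and *Etfb* (0.983), the last a subunit of the flavoprotein that accepts electrons from the dehydrogenases. *Cpt1a* was nearest to *Echs1* (0.978), *Dlec1* (0.971) and *Gys1* (0.970), and *Cpt2* to *Lypla1* (0.978), *Ech1* (0.975) and *Ghr* (0.974). *Acadl* was nearest to *Mrpl38* (0.979), *Lypla1* (0.978) and *Tsfm* (0.975). For *Ehhadh* the closest were *Fah* (0.958), *Dnajc12* (0.953) and *Acat2* (0.953), and for *Acot1* they were *Ttpa* (0.916), *Mlxipl* (0.914) and *Fga* (0.912). *Acsl5* ran with *Efhd1* (0.936), *Arhgef33* (0.925) and *Sgsm1* (0.917), and *Acsl1*, with the lowest values, with *Ccdc148*, *Sfxn2* (both 0.889) and *Ttc25* (0.886).

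To ask whether loss of *Prdm16* changed these levels, the summed counts of each class were compared between the 3 WT and the 3 KO mice. Of 108 pairs of member and class, 92 passed the filter on low counts, and 3 passed an adjusted p of 0.05 (edgeR's quasi-likelihood test, two-sided, adjusted over all genes of a class by Benjamini and Hochberg). Over all genes 1.92% of tests passed, so the share among the members was near the background. All 3 were lower in KO, namely *Acsl5* in the thick ascending limb, *Acsl5* in principal cells and *Acot1* in the macula densa. Of all genes tested, 2.3% in the thick ascending limb, 1.31% in principal cells and 0.283% in the macula densa were called lower, and 4.64%, 3.04% and 0.85% in either direction. In the classes without a called member, the share of all genes called was 3.52% in the connecting tubule, 2.23% in the distal convoluted tubule, 1.42% in intercalated cells, 1.7% in podocytes, 0.216% in endothelial cells, 0.277% in macrophages, 0.084% in stromal and mesangial cells, 0.0253% in T and NK cells and 0.173% in the proximal tubule.

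Taken by direction alone, 49 of the 92 log2 fold changes lay below 0 and 43 above. The median log2 fold change of the members was -0.28 in the thick ascending limb, -0.14 in both the distal convoluted and the connecting tubule, and 0.17 in the proximal tubule. The medians over all genes of those classes lay between -0.03 and 0.01. In the connecting tubule all 9 members lay below 0, although *Ehhadh* and *Hadha* were above it under some other settings, with none of them past the threshold (2 at an unadjusted p under 0.05, and 1, *Acsl5*, past it by DESeq2).

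**Figure D2:**
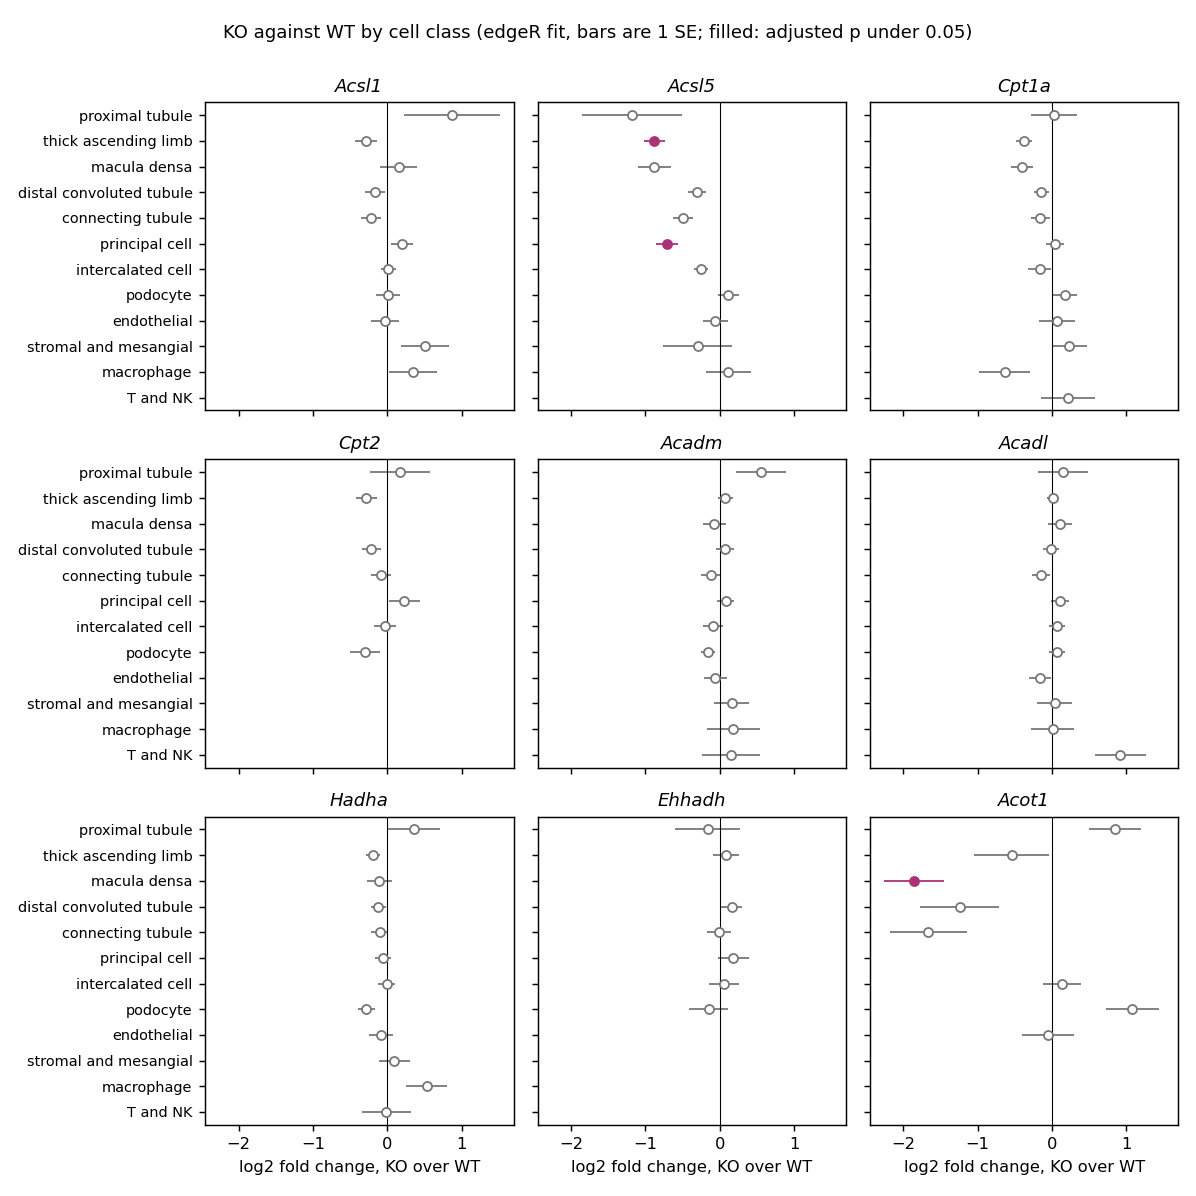
Log2 fold change of KO over WT for each gene (panel) and class (rows), with 1 SE from the edgeR fit; filled points passed an adjusted p of 0.05. The 3 filled points are *Acsl5* in the thick ascending limb (-0.88) and principal cells (-0.71) and *Acot1* in the macula densa (-1.86), and classes without a point did not pass the filter on low counts.

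*Acsl5*, the gene of an acyl-CoA synthetase of mitochondria and endoplasmic reticulum, fell in the thick ascending limb of KO mice. It was at 106, 123 and 132 CPM in WT1 to WT3, and 68.1, 51.7 and 76.0 CPM in KO1 to KO3, with no KO library reaching the lowest WT library. The log2 fold change was -0.88 ± 0.14 (SE, n = 3 per group), a 1.84-fold lower level, with an adjusted p of 0.00769. In principal cells *Acsl5* was at 122, 124 and 150 CPM in WT mice and 76.6, 82.2 and 90.0 CPM in KO, again without overlap (log2 fold change -0.71 ± 0.15, adjusted p = 0.0206). Without WT2 and KO1 the 2 differences kept their size (-0.88 and -0.69) and missed the threshold with 2 mice per group, at adjusted p = 0.0532 and 0.110. Leaving out KO1 alone (adjusted p = 0.0920) or KO2 alone (0.0897) also ended the call in principal cells, whereas in the thick ascending limb the call held whichever single library was left out (highest adjusted p 0.0286).

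The neighbouring tubule classes were ordered the same way. In the connecting tubule *Acsl5* was at 177, 178 and 182 CPM in WT mice and 143, 106 and 140 CPM in KO, and in the macula densa at 184, 117 and 200 CPM against 76.8, 105 and 85.3 CPM. The groups did not overlap in either, and neither passed the threshold (log2 fold change -0.50 ± 0.13 with an adjusted p of 0.0562, and -0.88 ± 0.22 with 0.0687). DESeq2 placed the connecting tubule past it (adjusted p = 0.0346), and without WT2 and KO1 edgeR gave 0.197. The distal convoluted tubule (115, 111 and 121 against 94.4, 78.8 and 104 CPM) and intercalated cells (170, 176 and 166 against 148, 155 and 131 CPM) also had KO below WT without overlap, with adjusted p of 0.301 and 0.297. Thus *Acsl5* was lower without overlap in 6 of the 11 classes where it was tested, all 6 of them tubular from the thick ascending limb onward. Over all tests of single genes in those 11 classes, 8.56% had every KO library below every WT library. The 6 classes come from the same mice, so they are not separate support for each other. How many genes were lower without overlap in as many classes was not determined.

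Outside these classes the groups overlapped. Podocytes held 46.8, 51.5 and 36.9 CPM of *Acsl5* in WT and 45.6, 56.0 and 50.4 CPM in KO, and endothelial cells 77.8, 103 and 93.9 against 93.2, 77.4 and 92.0 CPM. A joint test of whether the effect of genotype differed between the 12 classes gave an adjusted p of 0.0148 for *Acsl5*, where 6.47% of all genes passed. That call was lost without WT1 (0.0533), WT3 (0.210), KO1 (0.0920) or KO2 (0.0749), and it held without WT2 and KO1 together.

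**Figure D3:**
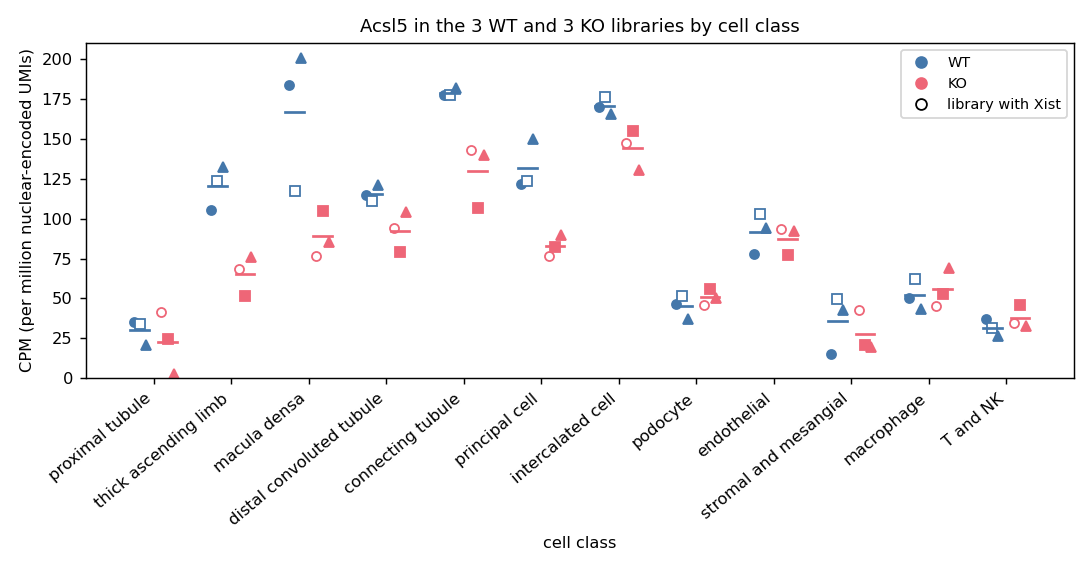
*Acsl5* level (CPM, linear axis) in each library by cell class, WT left and KO right in each class; circles, squares and triangles are replicates 1, 2 and 3, open symbols the 2 libraries with *Xist*, lines the group means. From the thick ascending limb to the intercalated cells all KO points lie below all WT points, and in podocytes, endothelial cells and the 3 remaining classes at the right they overlap.

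Levels of *Acsl5* in the clusters within these classes come from the same cells of the same mice, so they describe the result and add no separate support. How many of all genes had KO below WT without overlap in single clusters was not determined. Each KO library was below each WT library in 4 of 7 clusters of the thick ascending limb, in both clusters of principal cells, in both of the connecting tubule, in all 3 of intercalated cells and in 1 of 3 of the distal convoluted tubule. The 3 exceptions in the thick ascending limb were the clusters with the fewest counts, at 2 to 18 UMIs of *Acsl5* per library. Barcodes with 10 to 100 UMIs, too shallow to count as cells, carried 93.8, 89.2 and 97.6 CPM of *Acsl5* in WT and 76.2, 66.0 and 77.6 CPM in KO. These levels moved with the result, and their part in it was not tested.

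By position *Acsl5* spans chr19:55251938-55297720 on the plus strand of GRCm38 in GENCODE, and *Zdhhc6* overlaps it on the other strand. *Acot1* spans chr12:84009490-84018371, also on the plus strand, with no overlapping gene. Of the stretches of 50 bases in the transcripts of *Acsl5*, 0.124% also occur in transcripts of another gene, whereas for *Acot1* the share was 19.2%, with *Acot2*, *Acot5* and *Acot3*, so that counts may have been split or lost among these thioesterases. The RefSeq promoters of both genes (GRCm38.p6, 250 bases before to 50 after the start, plus strand) are given here since these were the members with a called difference, at chr19:55253119-55253418 for *Acsl5* and chr12:84009252-84009551 for *Acot1*, with a CCAAT box in capitals.
Acsl5: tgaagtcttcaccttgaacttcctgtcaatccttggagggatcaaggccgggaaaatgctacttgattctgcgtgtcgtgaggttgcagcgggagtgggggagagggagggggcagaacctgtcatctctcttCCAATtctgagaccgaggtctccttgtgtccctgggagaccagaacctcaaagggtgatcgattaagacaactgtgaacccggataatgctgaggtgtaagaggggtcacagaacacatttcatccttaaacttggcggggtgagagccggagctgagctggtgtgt
Acot1: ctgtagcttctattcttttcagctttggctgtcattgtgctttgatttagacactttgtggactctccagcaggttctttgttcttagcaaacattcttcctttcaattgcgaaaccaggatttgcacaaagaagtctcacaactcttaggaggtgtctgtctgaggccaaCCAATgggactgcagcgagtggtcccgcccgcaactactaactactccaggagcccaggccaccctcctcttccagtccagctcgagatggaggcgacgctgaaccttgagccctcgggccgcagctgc
Each held 1 CCAAT, a motif found on either strand in 37.4% of 32851 promoters of this length and in those of 5 members. AGGTCA, the half-site of PPAR-alpha and related nuclear receptors, was in neither. Among the 10 member promoters it occurred in those of *Acadm* and *Cpt1a*, against 16.3% of all promoters. GGGCGG, a GC box, was in 7 of the 10 against 35.7%, once in *Acot1* and not in *Acsl5*, and no 2 of these motifs overlapped in the printed promoters.

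The direction of the *Acot1* difference varied between classes, and only the decrease in the macula densa passed the threshold. In the macula densa, the cells that sense salt at the end of the thick ascending limb, it was at 37.3, 69.0 and 42.3 CPM in WT mice and 15.3, 12.7 and 12.8 CPM in KO, from 14, 30 and 15 UMIs against 5, 4 and 6. The groups did not overlap, and the gene fell by 1.86 on the log2 scale (SE 0.40, n = 3 per group, adjusted p = 0.0290). This call rested on few molecules, and it was lost without WT2 and KO1 (-1.57, adjusted p = 0.275), without WT2, WT3 or any one KO library (0.0675 to 0.232), and with DESeq2 (0.126). Summed proximal tubule markers, whose class holds the most *Acot1*, were at 45.1 to 122 CPM in the macula densa of WT and 122 to 221 CPM in that of KO, with 7 to 9 and 8 to 11 of the 13 at 0. The marker sum was thus not lower in KO, where *Acot1* was.

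In podocytes, by contrast, *Acot1* was at 5.84, 11.5 and 5.23 CPM in WT mice and 19.8, 9.62 and 22.5 CPM in KO mice (log2 fold change 1.08 ± 0.35, adjusted p = 0.148). The podocyte groups overlapped, with KO2 below WT2. The proximal tubule had 235, 327 and 180 CPM in WT mice and 460, 349 and 565 CPM in KO, free of overlap and with KO above WT (0.85 ± 0.35, adjusted p = 0.711). The distal classes had low levels, 5.39, 8.93 and 3.00 against 0.866, 1.51 and 3.13 CPM in the connecting tubule (-1.66 ± 0.52, adjusted p = 0.113) and 16.6, 16.9 and 6.14 against 3.52, 1.21 and 11.0 CPM in the distal convoluted tubule (-1.24 ± 0.53, adjusted p = 0.336). In both of these the groups overlapped, and WT1 and WT2 were the highest libraries. In the joint test over the 12 classes the effect of genotype on *Acot1* differed, with an adjusted p of 1.63e-05. It did so in each of the 13 alternatives that could be fitted for this gene (highest adjusted p 0.00316). Only 8 of these classes passed the filter on low counts for *Acot1* when tested singly. Macrophages, stromal and mesangial cells, and T and NK cells held 6, 3 and 2 UMIs of it over all 6 libraries. Barcodes with 10 to 100 UMIs held 9.18, 24.8 and 17.0 CPM of *Acot1* in WT and 4.92, 8.52 and 12.9 CPM in KO, close to the levels of the distal classes, and their part was not tested.

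**Figure D4:**
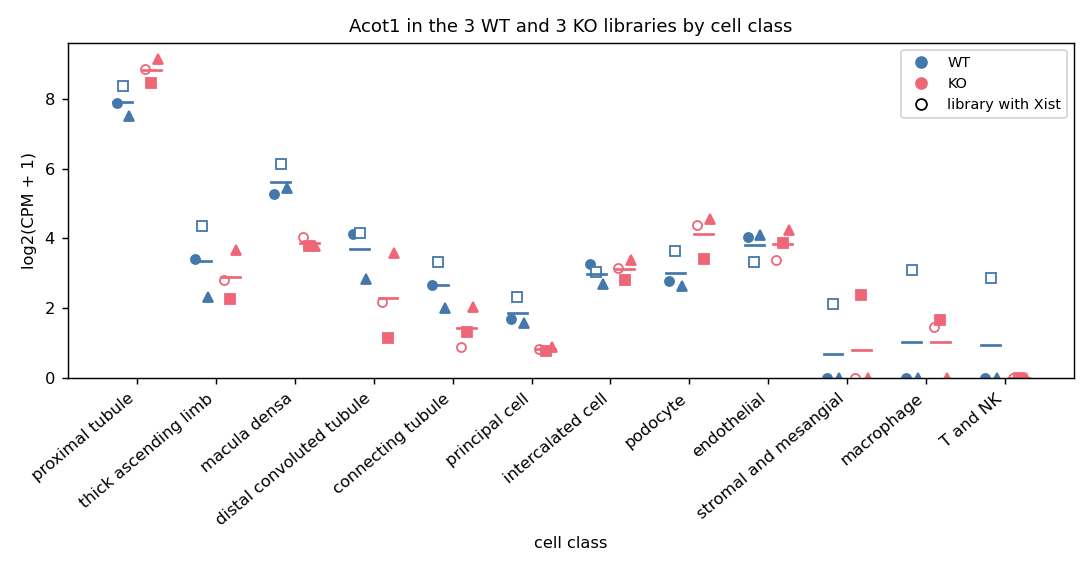
*Acot1* level as log2(CPM + 1) in each library by cell class; symbols as in the plot of *Acsl5* by class. KO lies above WT in the proximal tubule and below it in the macula densa, and levels outside these 2 classes are low.

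In the proximal tubule no member passed the threshold under edgeR or DESeq2, and 1, *Acot1*, had an unadjusted p under 0.05, yet *Acsl1* spread widely there. It was at 117, 847 and 118 CPM in WT1 to WT3, from 33, 899 and 194 UMIs, and at 836, 613 and 701 CPM in KO1 to KO3, from 20, 151 and 278 UMIs. WT1 and WT3 thus lay together far below the other 4 libraries, and WT2, one of the 2 libraries with *Xist*, lay with the KO libraries. With all 6 libraries the log2 fold change was 0.87 ± 0.64 (adjusted p = 0.972). Without WT2 and KO1 it was 2.48 ± 0.35, a 5.59-fold higher level in KO (adjusted p = 0.00478, 2 mice per group), and without WT2 alone 2.48 ± 0.41 (0.00244). In this comparison of 2 against 2 mice, 1 of 8 members and 1.5% of all genes were called.

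No other member was called in the proximal tubule without WT2 and KO1. *Acadm* was at 665, 825 and 1035 CPM in WT mice and 1338, 1422 and 1232 CPM in KO, without overlap (log2 fold change 0.56 ± 0.34, adjusted p = 0.928). *Cpt1a* (487, 542 and 394 against 627, 451 and 492 CPM), *Acadl* (551, 622 and 656 against 502, 776 and 774 CPM) and *Hadha* (206, 335 and 156 against 502, 264 and 275 CPM) overlapped between groups. For *Hadha*, as for *Acot1* above, WT1 and WT3 were the lowest libraries, and the log2 fold change without WT2 and KO1 was 0.61 ± 0.32 (adjusted p = 0.575) for *Hadha* and 1.20 ± 0.37 (0.194) for *Acot1*. *Ehhadh* was at 181, 533 and 294 CPM in WT mice and 167, 293 and 398 CPM in KO, and *Cpt2* at 92.4, 173 and 94.7 against 41.8, 118 and 182 CPM. With 25 cells, 1 UMI of KO1 was worth 41.8 CPM in this class, compared with 0.607 to 4.06 CPM in the other 5 libraries.

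**Figure D5:**
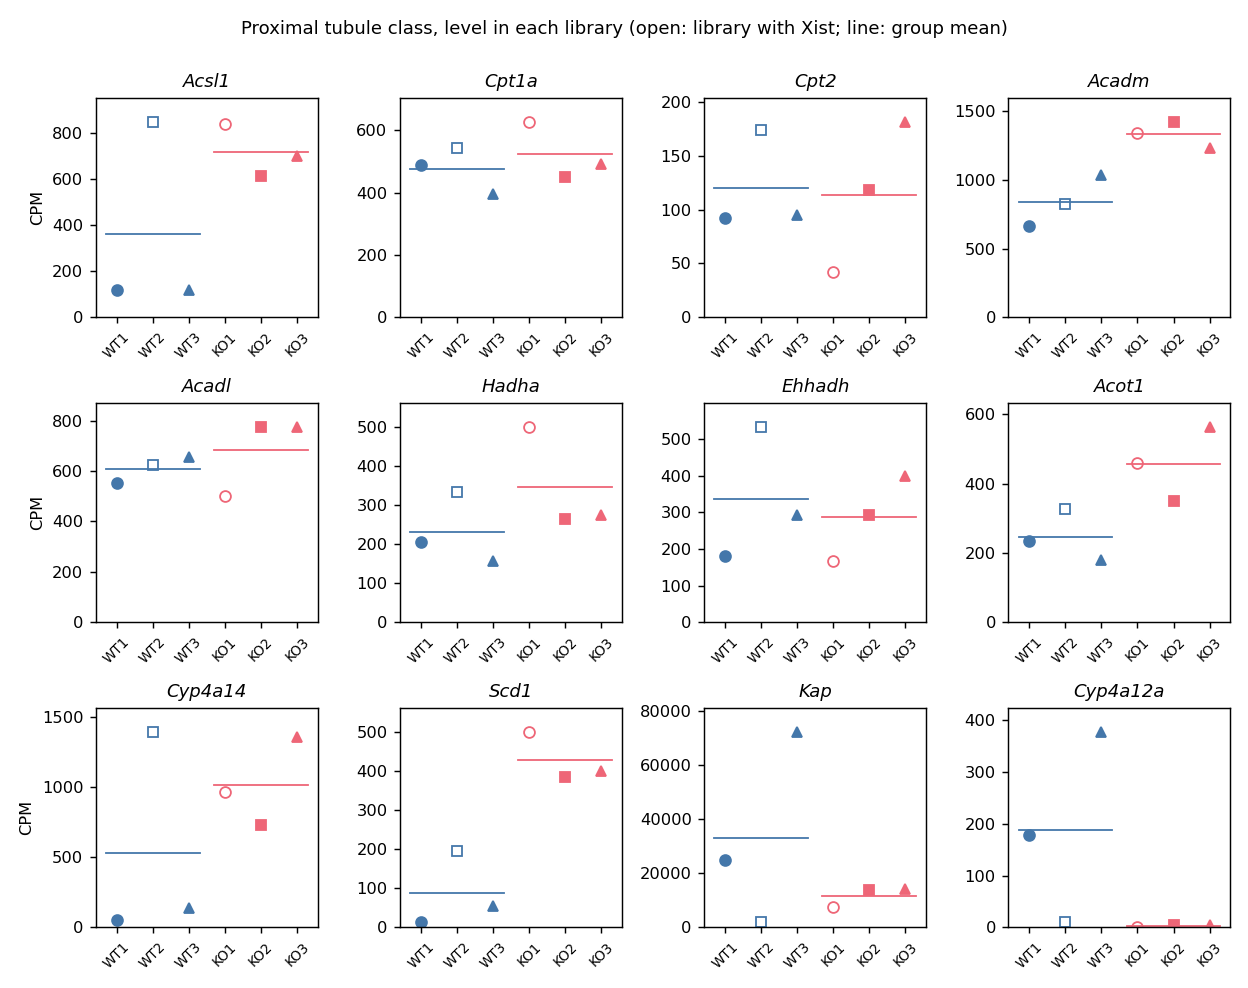
Level (CPM) of 8 members, *Cyp4a14*, *Scd1*, *Kap* and *Cyp4a12a* in the proximal tubule class of each library; symbols as in the plot of *Acsl5* by class. *Acsl1* and *Cyp4a14* are low in WT1 and WT3 only, and *Kap* and *Cyp4a12a* are highest in the same 2 libraries.

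Some genes of the wider pathway, picked after their values were seen, varied between the libraries of this class. *Cyp4a14*, an omega-hydroxylase gene and PPAR-alpha target, was at 49.8, 1394 and 140 CPM in WT mice and 962, 731 and 1353 CPM in KO, split as *Acsl1* was. *Scd1*, which desaturates fatty acids, was at 14.2, 196 and 54.1 against 502, 386 and 401 CPM, so that WT2 lay below every KO library, unlike for *Acsl1*. Without WT2 and KO1 both were called higher (log2 fold change 3.35 ± 0.54 and 3.24 ± 0.46, adjusted p = 0.00942 and 0.00497), as was the thioesterase gene *Acot3* (2.83 ± 0.52, 0.0194). In the same comparison *Cyp4a12a*, a hydroxylase gene known for androgen dependence, was called lower, with 178 and 378 CPM in WT1 and WT3, 11.3 CPM in WT2, and 0, 1 and 2 UMIs in KO1 to KO3 (adjusted p = 0.00168). *Acsm3*, a medium-chain synthetase gene, was called lower too, with 14, 2 and 412 UMIs in WT and 0, 0 and 1 in KO (0.0121). These were the 5 genes called among the 67 pathway genes tested there. With all 6 libraries under the usual settings, none was called by edgeR or DESeq2 (5 at an unadjusted p under 0.05). With all 6 libraries and a block for those with *Xist*, edgeR called *Scd1* higher (2.62 ± 0.49, adjusted p = 0.0163). *Cyp4a14* and *Acot3* were not called in that fit (0.304 for each).

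Genes that mark segment and sex also differed between these libraries. *Kap*, an androgen-regulated gene of the proximal tubule, was highest where *Acsl1* was low, at 25060 and 72340 CPM in WT1 and WT3, 1961 CPM in WT2 and 7443, 13720 and 14000 CPM in KO1 to KO3. *Slc7a13*, a transporter of the last segment that is stronger in males, had no UMI in WT2 and KO1, 338 and 1951 CPM in WT1 and WT3, and 532 and 421 CPM in KO2 and KO3. *Slc5a2*, the glucose transporter of the first segment, was at 156, 121 and 75.3 CPM in WT mice and 0, 4.06 and 17.6 CPM in KO. Neither *Slc7a13* nor *Slc5a2* split the libraries as *Acsl1* did. Segment make-up, sex and genotype cannot be told apart in so few cells, and the part of each in the *Acsl1* levels was not tested.

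*Cpt1a*, whose enzyme sets the rate of entry into mitochondria, came closest to the threshold in the thick ascending limb, at 843, 906 and 688 CPM in WT mice and 584, 600 and 678 CPM in KO mice (log2 fold change -0.38 ± 0.11, adjusted p = 0.0718). The groups did not overlap, though WT3 and KO3 nearly met. In the macula densa it was at 591, 641 and 652 against 408, 495 and 499 CPM (-0.41 ± 0.14, adjusted p = 0.291), and in no other class did the *Cpt1a* ranges separate. DESeq2 called *Cpt1a* in the thick ascending limb (adjusted p = 0.0236), and without WT2 and KO1 edgeR's adjusted p was 0.381. Leaving out WT3 alone brought it past the threshold (0.0347).

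For the remaining members no test outside the proximal tubule passed the threshold. *Acsl1* outside the proximal tubule lay between -0.29 ± 0.15 in the thick ascending limb (552, 471 and 502 against 466, 303 and 476 CPM, adjusted p = 0.337) and 0.51 ± 0.32 in stromal and mesangial cells, where it turned to -0.14 ± 0.39 without WT2 and KO1. *Cpt2*, tested in 7 classes, lay between -0.30 and 0.23, and *Ehhadh*, tested in 7, between -0.16 and 0.18, where the lowest value, from the proximal tubule, turned to 0.52 ± 0.38 without WT2 and KO1. *Acadm*, *Acadl* and *Hadha* were tested in all 12 classes, with log2 fold changes from -0.16 to 0.56, -0.17 to 0.92 and -0.28 to 0.53. The highest value of *Acadl* came from T and NK cells, at 100, 50.5 and 89.0 against 134, 122 and 229 CPM (0.92 ± 0.34, adjusted p = 0.860), and the lowest of *Hadha* from podocytes, at 157, 171 and 144 against 138, 118 and 143 CPM (-0.28 ± 0.11, adjusted p = 0.210). Both pairs of groups were free of overlap. In the thick ascending limb *Acadl* was at 567, 556 and 509 against 524, 553 and 564 CPM (0.01 ± 0.08, adjusted p = 0.951), with a smaller error than in any other class.

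Among 93 other genes of fatty acid metabolism in the matrices, grouped in 8 lists, 15 of 619 tests passed the threshold, 9 higher and 6 lower in KO, or 2.42%, near the 1.92% of all tests. The lists of mitochondrial beta-oxidation (15 genes, 150 tests) and of the carnitine shuttle (46 tests) had no call in any class under edgeR, with medians of -0.05 and -0.03, 13 and 5 tests at an unadjusted p under 0.05, and 1 and 0 calls by DESeq2, the former *Acadvl* in the thick ascending limb (-0.32, adjusted p = 0.0443). Fatty acid uptake and activation had 5 calls in 88 tests (4 higher and 1 lower, median 0.04), acyl-CoA thioesterases 4 in 58 (1 higher and 3 lower, median -0.05), peroxisomal beta-oxidation 2 in 120 (1 each way), malonyl-CoA and fatty acid synthesis 2 in 59 (both higher), ketone body metabolism 1 in 43 (higher) and other PPAR-alpha targets 1 in 55 (lower). Over all genes the median was 0.00.

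The thick ascending limb held 7 of these calls among 68 tests, beside 4.64% of all its genes. *Acsl4*, a synthetase that prefers arachidonic acid, rose from 68.4, 68.5 and 74.1 CPM in the WT mice to 108, 96.2 and 101 CPM in KO mice (log2 fold change 0.53 ± 0.09, adjusted p = 0.00769), in the class where *Acsl5* fell. *Acot9*, a mitochondrial thioesterase gene, rose from 61.2, 57.0 and 61.1 to 102, 102 and 103 CPM (0.78 ± 0.08, 0.000625), and *Scd1* from 3.41, 2.79 and 2.84 to 9.58, 7.35 and 7.04 CPM (1.39 ± 0.22, 0.00655). *Fabp3* (0.40 ± 0.08, adjusted p = 0.0211), a fatty acid binding protein gene, and *Acox3* (0.44 ± 0.10, 0.0355), a peroxisomal oxidase gene, were higher as well. The fatty acid transporter gene *Cd36* (-0.80 ± 0.16, 0.0199) and the thioesterase gene *Acot11* (-0.75 ± 0.18, 0.0378) were lower.

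Elsewhere the calls were scattered. *Acot2*, the mitochondrial neighbour of *Acot1* in the genome and in sequence, fell in the connecting tubule (64.4, 71.1 and 50.7 against 38.4, 33.3 and 42.1 CPM, adjusted p = 0.0145) and in the distal convoluted tubule (120, 141 and 85.7 against 57.3, 46.5 and 77.7 CPM, 0.0338). *Acss1*, which activates acetate in mitochondria, rose in the distal convoluted tubule from 467, 433 and 440 to 964, 696 and 698 CPM (0.00503), and *Ucp2*, an uncoupling protein gene, fell there from 730, 646 and 719 to 342, 531 and 400 CPM (0.0220). The peroxisomal transporter gene *Abcd3* fell in the connecting tubule (-0.59 ± 0.12, adjusted p = 0.0110). Principal cells had more *Fabp3* (1.02 ± 0.17, 0.00510) and *Bdh1*, a ketone body enzyme gene (0.90 ± 0.22, 0.0438), and the macula densa more *Scd1* (1.69 ± 0.35, 0.0209). Of the 15 calls, those of *Acss1*, *Fabp3* in principal cells, *Acot9*, *Acsl4* and *Scd1* in the thick ascending limb held whichever single library was left out. Each of the other 10 calls was ended by leaving out 1 of several libraries, *Abcd3* by WT3 or KO1 (adjusted p up to 0.0727), *Acot2* by WT1, WT2, KO1 or KO2 (up to 0.0727 in the connecting and 0.136 in the distal convoluted tubule), *Ucp2* by WT1, WT3, KO1 or KO3 (0.107) and *Scd1* in the macula densa by WT2, WT3, KO1 or KO3 (0.154). For *Bdh1* these were WT1, WT2, KO2 or KO3 (0.193), for *Acot11* WT1, WT3, KO1 or KO3 (0.134), for *Cd36* WT1, WT3 or KO3 (0.0750), for *Acox3* each library but KO2 (0.122) and for *Fabp3* in the thick ascending limb each but WT3 (0.0648). Without WT2 and KO1 the calls of *Acss1* (0.00760), *Ucp2* (0.0277), *Fabp3* in principal cells (0.0307), *Acot9* (0.0102) and *Cd36* (0.0241) held, whereas those of *Acsl4* (adjusted p = 0.0806) and of *Scd1* in the thick ascending limb (0.0598) and in the macula densa (0.193) were lost, with those of *Abcd3* (0.126), *Acot2* (0.199 and 0.179), *Bdh1* (0.0854), *Acot11* (0.116), *Acox3* (0.168) and *Fabp3* in the thick ascending limb (0.104).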

How the data were processed

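Single-cell libraries of the renal cortex had been captured on the BD Rhapsody system, in which a transcript's end is tagged with a unique molecular identifier (UMI). The authors deposited raw, whole-number UMI counts, one value for each gene in each barcode, which came from the BD Rhapsody WTA pipeline on mm10 and a GENCODE annotation, and the labels also name Scanpy 1.8.

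Here barcodes with 500 to 60000 UMIs, 200 to 8000 genes and at most 80% mitochondrial UMIs were kept, 54399 in all. The top 6% of Scrublet scores were removed per library, since its automatic threshold marked under 0.5% in 5 of 6 libraries, which left 51136 cells. No 2 libraries shared more than 4 cell barcodes. After leaving out the members, pathway and mitochondrial genes, 2000 variable genes and 30 principal components gave 33 Leiden clusters (resolution 2.0, scanpy 1.11.5), named from marker genes, so a class name means likeness only; 3 clusters stayed unnamed. Counts of nuclear-encoded genes were summed per library and class and tested with edgeR 4.0.16 in R 4.3.3 (TMM, filterByExpr with a minimum count of 10, glmQLFit, glmQLFTest, Benjamini-Hochberg). Classes needed 20 cells per library (proximal tubule, 10). The median mitochondrial share of cells per library was 55.6 to 61.2% in the thick ascending limb and 56.3 to 65.6% in the distal convoluted tubule. In the proximal tubule it was 30.8% in WT1 and 55.8 to 66.2% in the other libraries. The class effect was tested in 1 fit with the mouse as a block and a joint F test. The code was tested on simulated data. DESeq2 1.42.0 was among the alternatives. Cells of 1 mouse are not replicates, and the study's per-cell rank test was not used. Depth was 96382945 to 121198131 UMIs per library over all barcodes. Coordinates are from GENCODE vM21.

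Members and lists were chosen with earlier results of these data known. All members were described in every class; each pathway gene past the threshold was named, up to 12 per class by adjusted p; the 3 most alike genes needed at least 100 UMIs in WT. Replicates within a group differed far beyond counting noise (chi-square per degree of freedom 36.5 to 78.6), so none was a repeat deposit.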

Additional observations from a re-analysis of the deposited data

Results flagged for a closer look

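The effect of genotype differed between classes for 2 of the 9 members, by the joint test of genotype and class over all genes. For *Acot1* the adjusted p was 1.63e-05. In the 8 classes where it was tested singly, its log2 fold changes of KO over WT went from -1.86 in the macula densa to 1.08 in podocytes. For *Acsl5* the adjusted p was 0.0148, and this call was lost without WT1, WT3, KO1 or KO2 (adjusted p up to 0.210). Its log2 fold changes went from -1.18 in the proximal tubule through -0.88 in the thick ascending limb to 0.12 in macrophages. The proximal tubule value had an error of 0.67 and came from 10, 36 and 34 UMIs in WT against 1, 6 and 1 in KO. The lists of other fatty acid genes had 13 of 87 genes past the same threshold, and all genes 927 of 14326, or 6.47%. Why the effects differed was not tested.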

How the results depend on the processing

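The 3 member tests past the threshold became 10 with no filter on low counts, 5 with a block for the libraries with *Xist* and 1 without these 2 libraries, the last being *Acsl1* in the proximal tubule, while the calls over all genes went from 1939 to 5925, 2492 and 971. Leaving out each library in turn gave 1 to 4. The 15 pathway tests became 53 with no filter and 0 at a mitochondrial limit of 30%, where 393 tests were left (edgeR, 41 of them at an unadjusted p under 0.05; DESeq2 at the usual limit gave 17), and 7 to 17 on leaving out each library. The 2 members with an interaction became 1 at the limit of 30% and 1 to 3 on leaving out each library. The other settings gave 2 to 4 member tests. At the mitochondrial limit of 30% the calls over all genes fell from 554 to 23 in the thick ascending limb. They fell from 241 to 9 in the distal convoluted tubule, and the proximal tubule had too few cells to be tested. No called member test changed sign. Of 1533 refits of the 92 member tests under 17 settings 120 did, none of them past the threshold, among them *Ehhadh* in the proximal tubule (0.01 to 0.52 in 5 settings, from -0.16). The 5 members highest in the proximal tubule stayed 5 in the 7 settings run for levels. With the replicate block, a shared number only (correlations of same-numbered deviations 0.339, -0.0867 and 0.359, and WT2 closest to KO1), there were 3 member and 10 pathway tests; *Acot1* in the macula densa was lost (adjusted p = 0.0705) and *Acsl5* in the connecting tubule gained (0.0410). Doublets left in (0.132) or classes from marker scores (0.0549) also ended the call of *Acot1*. The cause of these shifts was not tested. Classes with few cells limit what could be detected, above all the proximal tubule.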
